A study of Mus musculus with 6 samples.

Results

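The core loop of the circadian clock was examined in colorectal tissue of mice with drug-treated colitis, through 9 genes of the 18268 in the expression table, selected by symbol as Arntl, Clock, Npas2, Rora, Cry1, Cry2, Per1, Per2 and Per3. All mice were C57BL/6 and received dextran sulfate sodium (DSS), which damages the colonic epithelium and so causes colitis, for 7 days. The methods describe adult males. The mice were treated by gavage for 6 days with berberine (BBR, a plant alkaloid) in 3 samples or with sulfasalazine (SASP, a prodrug that releases an aminosalicylate in the colon) in 3 samples. Healthy and untreated colitis tissue was not analysed here, so each difference is between the drug groups. The paper reports day-night rhythms of many clock genes in this tissue. Its methods state that collection started in the morning, and the labels give no time for each mouse. The part of collection time in the values below was not tested. RNA was sequenced from whole tissue, and values are FPKM, a read level corrected for transcript length and for the total of mapped reads. In such bulk samples, fewer cells of a type and less RNA per cell cannot be told apart.

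The clock is a transcriptional feedback loop that runs in nearly every cell, the gut epithelium and its stroma included. BMAL1, the protein of Arntl, pairs with CLOCK or with its relative NPAS2 and switches on genes that carry an E-box, the Per and Cry genes among them. PER and CRY proteins return to the nucleus and inhibit their own activators. In a second loop, RORA activates and the REV-ERB proteins repress Arntl through ROR elements. Output factors such as DBP act through D-boxes, which NFIL3 also binds as a repressor.

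The promoter windows below are shown because they hold matches to motifs that clock proteins are known to use. They are RefSeq windows of 300 bases on GRCm38.p6, from 250 bases before to 50 bases into the transcript, and were matched by gene ID for 8 of the 9 genes. Per2 had no entry. Capitals mark the ROR elements of Arntl, an E-box and an E-prime box of Cry1, an E-box of Per1 and D-boxes of Per3.
Arntl, chr7:113207261-113207560, plus strand: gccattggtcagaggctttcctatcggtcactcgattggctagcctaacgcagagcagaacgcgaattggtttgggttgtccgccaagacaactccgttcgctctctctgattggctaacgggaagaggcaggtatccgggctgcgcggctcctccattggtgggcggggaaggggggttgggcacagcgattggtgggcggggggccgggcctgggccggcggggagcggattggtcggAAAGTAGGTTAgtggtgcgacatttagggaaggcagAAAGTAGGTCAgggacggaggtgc
Cry1, chr10:85185005-85185304, minus strand: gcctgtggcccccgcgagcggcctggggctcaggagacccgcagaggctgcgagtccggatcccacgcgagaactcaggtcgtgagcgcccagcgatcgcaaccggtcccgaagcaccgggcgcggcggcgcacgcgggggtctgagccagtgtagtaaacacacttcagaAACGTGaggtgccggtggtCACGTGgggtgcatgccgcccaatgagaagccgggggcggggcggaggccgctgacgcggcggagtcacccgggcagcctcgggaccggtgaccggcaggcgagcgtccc
Per1, chr11:69098699-69098998, plus strand: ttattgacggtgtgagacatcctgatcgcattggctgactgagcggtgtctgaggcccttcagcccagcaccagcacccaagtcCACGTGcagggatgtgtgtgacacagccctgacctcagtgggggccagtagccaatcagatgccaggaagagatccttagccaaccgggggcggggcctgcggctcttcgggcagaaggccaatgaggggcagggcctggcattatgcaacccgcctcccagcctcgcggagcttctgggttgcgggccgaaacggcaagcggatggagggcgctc
Per3, chr4:151044616-151044915, minus strand: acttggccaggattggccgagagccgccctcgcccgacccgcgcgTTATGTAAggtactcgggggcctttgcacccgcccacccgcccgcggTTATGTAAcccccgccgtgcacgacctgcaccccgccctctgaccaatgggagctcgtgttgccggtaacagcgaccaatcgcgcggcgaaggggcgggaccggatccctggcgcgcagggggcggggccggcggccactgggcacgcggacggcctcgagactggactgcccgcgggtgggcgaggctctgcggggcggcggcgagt

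Both strands of the 12 windows of these genes were searched for 4 motifs, which did not overlap where found. The ROR element, searched with any base in the next to last place, was found as AAAGTAGGTTA at position -10 and as AAAGTAGGTCA at 27 from the start site in the printed window of Arntl, and 0.0609% of all 32851 RefSeq windows held one. The E-box CACGTG began at -60 in Cry1 and at -166 in Per1, against 7.15% of all windows. The E-prime box CACGTT, read on the opposite strand as AACGTG, began at -79 in Cry1 and at -166 in Cry2, against 4.68%. The D-box TTATGTAA began at -205 and -158 in Per3, against 0.938%. No match was found in the windows of Clock, Npas2 or Rora. These matches describe sequence in a window, and binding was not measured.

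The libraries had 11518 to 12307 genes at 1 FPKM or more, and an approximate depth of 16400000 to 18200000 reads. BBR sample 3 stood apart, with a correlation to the other BBR samples of 0.949 and 0.953 across genes, against 0.982 to 0.989 within SASP. The 10 colonic epithelial markers summed to 6340 to 9025 FPKM, with 3 higher under BBR without overlap, 2 lower and 5 overlapping. Of these, Krt18 and Cdx2 rose and Vil1 fell (limma adjusted p = 0.0163, 0.0422 and 0.0327). Squamous epithelial markers summed to 2.24 FPKM at most. Smooth muscle markers summed to 2792 to 6613 FPKM in BBR and 709.7 to 2227 FPKM in SASP samples, with BBR sample 3 highest and SASP sample 1 lowest. Stromal markers summed to 316 to 426 FPKM in BBR and 159 to 255 FPKM in SASP samples, and neither this sum nor that of leukocyte markers, 32.0 to 48.3 against 111 to 154 FPKM, overlapped between groups. The leukocyte sum was carried mostly by Cd14, at 20.3 to 32.26 FPKM in BBR and 75.73 to 116.25 FPKM in SASP samples, and by S100a8. Of the 8 leukocyte markers, 4 were lower under BBR without overlap, Cd14 and S100a8 among them, and 4 overlapped, Cd3e and Adgre1 with a higher mean under BBR.

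Among the members, Arntl had the highest level in both groups, followed by Npas2, and Rora the lowest. The level of Arntl lay at percentile 81.1 to 89.0 of all listed genes in a sample, and that of Rora at percentile 29.3 to 32.9. Arntl, Npas2 and Clock followed each other without overlap in both groups. Clock and Cry1, and also Cry2 and Per1, overlapped with each other in both groups, so their order was not resolved. By group mean, Per3 lay below Per2 and above Rora, and its range overlapped with that of Per2 in BBR but not in SASP. In BBR sample 1, Per3 was above Per2 (3.98 against 3.73 FPKM). Rora rested on roughly 79 to 170 reads per sample and Per3 on 140 to 400, while Arntl rested on 1600 to 2700.

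**Figure D1:**
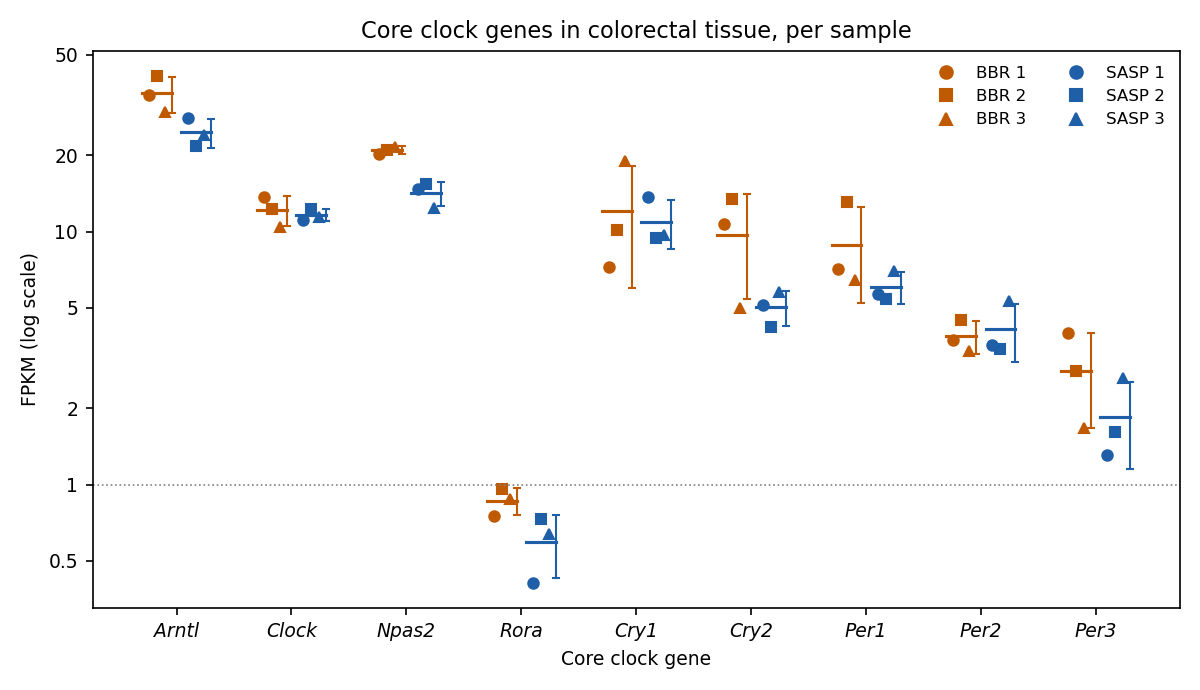
FPKM of the 9 core clock genes on a log axis, with a symbol for each of 3 BBR (orange) and 3 SASP (blue) samples; horizontal lines are means, error bars 1 SD, and the dotted line is 1 FPKM. Npas2, Arntl and Rora lay higher in every BBR sample than in any SASP sample, and within BBR the highest value was 2.70 times the lowest for Cry2, 2.62 times for Cry1 and 2.37 times for Per3.

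BBR and SASP were compared to see whether the clock genes differ between the drugs. Of the 9 members, 8 passed the filter on low values and were tested with limma, and Npas2 was the 1 that passed the threshold, as higher under BBR. Of all 12072 genes tested, 8.86% passed it, 3.82% as higher and 5.04% as lower, so 1 of 8 is close to the background. The groups did not overlap for 2 of the 8 tested members, Npas2 and Arntl, both higher under BBR, where 37.9% of all tested genes did not overlap in either direction and 21.3% lay higher without overlap. At an unadjusted p of at most 0.05 there were 2 of 8 members and 31.8% of all tested genes. The median log2 fold change of the 8 members was 0.42 and that of all tested genes 0.10. Log2 fold changes are differences of log2(FPKM + 1), BBR minus SASP, which understates changes at low levels. Positive values were found in 7 of 8 members and in 60.8% of all tested genes.

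Npas2 encodes a partner of BMAL1 that can take the place of CLOCK. It was at 20.23, 21.09 and 21.65 FPKM in BBR samples 1, 2 and 3 and at 14.69, 15.4 and 12.39 FPKM in SASP samples 1, 2 and 3. Its BBR values were close together and all above the SASP values. The means were 21.0 ± 0.715 FPKM in BBR and 14.2 ± 1.57 FPKM in SASP (SD, n = 3 each). It rose by 0.54 on the log2 scale (SE 0.11, 95% interval 0.27 to 0.81, limma adjusted p = 0.0370). The call held without BBR sample 3 and was lost on leaving out any other sample, at limma adjusted p-values of 0.0898 and 0.0943 without BBR sample 1 or 2, and of 0.131, 0.0666 and 0.144 without SASP sample 1, 2 or 3. It was also lost with no filter on low values (limma adjusted p = 0.0511), with median-ratio scaling (0.41, limma adjusted p = 0.0717) and with the smooth muscle markers as a covariate (0.52, limma adjusted p = 0.263). In the covariate fit the value of Npas2 hardly moved, unlike those of some other members, and 19 of all 12072 tested genes passed. The summed smooth muscle markers did not overlap between groups, so that fit cannot separate them from the drug. The part of stromal and leukocyte markers was not tested.

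Clock encodes the usual partner of BMAL1. It was at 13.72, 12.31 and 10.47 FPKM in BBR samples and at 11.07, 12.3 and 11.45 FPKM in SASP samples. BBR sample 3 was the lowest and BBR sample 1 the highest of the 6. The log2 fold change was 0.056, with a 95% interval of -0.25 to 0.36 (limma adjusted p = 0.781). Its sign turned with quantile normalization, with median-ratio scaling and without BBR sample 1.

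Within a sample, Npas2 was higher than Clock throughout. The ratio of their FPKM was 1.47, 1.71 and 2.07 in BBR samples 1, 2 and 3 and 1.33, 1.25 and 1.08 in SASP samples 1, 2 and 3. The groups did not overlap in this ratio, which does not depend on the scaling of a library. Npas2 alone also did not overlap, and no share over other pairs of genes was computed.

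Arntl encodes BMAL1, without which the loop does not cycle. It was at 34.51, 41.17 and 29.79 FPKM in BBR samples and at 28.21, 21.8 and 24.13 FPKM in SASP samples. The groups did not overlap, though BBR sample 3 and SASP sample 1 lay near each other. The means were 35.2 ± 5.72 FPKM in BBR and 24.7 ± 3.25 FPKM in SASP (SD, n = 3 each). The log2 fold change was 0.49 (SE 0.15, 95% interval 0.13 to 0.85, limma adjusted p = 0.0834), short of the threshold. Without BBR sample 3 it was 0.60 and passed (limma adjusted p = 0.0206). In the other fits that left out 1 sample it did not pass. With the smooth muscle markers as a covariate it moved to 0.81 and did not pass (limma adjusted p = 0.171).

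Rora encodes an activator of the second loop, which is known to act through ROR elements. It stayed under 1 FPKM in every sample and was not part of the test. Its values were 0.75, 0.96 and 0.88 FPKM in BBR samples and 0.41, 0.73 and 0.64 FPKM in SASP samples. The groups were separated by 0.75 against 0.73 FPKM only, and SASP sample 1 was the lowest. In the fit with no filter its log2 fold change was 0.23 (SE 0.10, limma adjusted p = 0.220). The ratio of Rora to Arntl overlapped between groups.

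Cry2 encodes a repressor of BMAL1 with CLOCK or NPAS2. It was at 10.74, 13.41 and 4.97 FPKM in BBR samples and at 5.11, 4.21 and 5.79 FPKM in SASP samples. BBR samples 1 and 2 lay above all SASP samples, and BBR sample 3 lay among them. With all samples the log2 fold change was 0.74 (95% interval -0.014 to 1.497, limma adjusted p = 0.163). Without BBR sample 3 it was 1.12 (limma adjusted p = 0.00555), and without any other sample it did not pass. With the smooth muscle markers as a covariate it moved to 1.29 and did not pass (limma adjusted p = 0.2455).

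Cry1 encodes the other cryptochrome, a strong repressor of the same complex. It was at 7.23, 10.13 and 18.94 FPKM in BBR samples and at 13.66, 9.44 and 9.69 FPKM in SASP samples. BBR samples were the lowest and the highest of the 6, a 2.62-fold range within the group. The log2 fold change was 0.053, with a 95% interval of -0.71 to 0.81 (limma adjusted p = 0.920). Such an interval holds changes in either direction, and without BBR sample 3 the value was -0.30.

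The balance of the cryptochromes varied within the BBR group. Cry2 exceeded Cry1 in BBR samples 1 and 2, at ratios of 1.49 and 1.32. In BBR sample 3 the ratio was 0.262, the lowest of all, and in SASP samples 1, 2 and 3 it was 0.374, 0.446 and 0.598. The groups therefore overlapped.

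**Figure D2:**
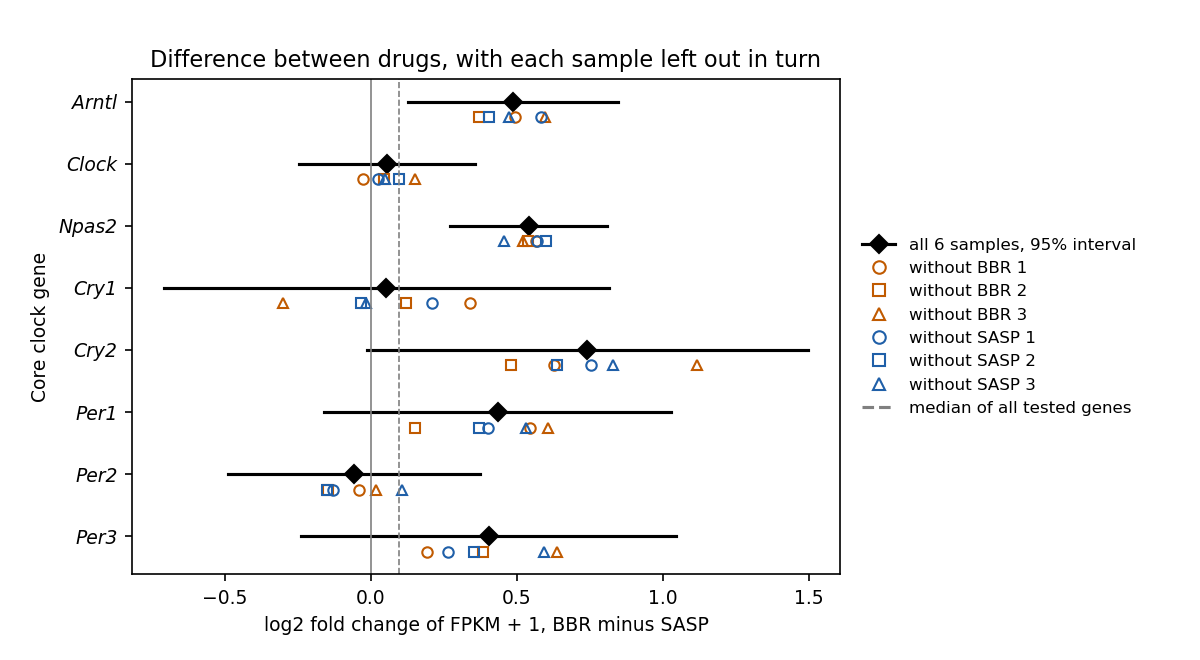
Log2 fold changes of FPKM + 1, BBR minus SASP, for the 8 tested core clock genes. Black diamonds and lines give the value and 95% interval with all samples, open symbols the value with 1 sample left out (orange BBR, blue SASP), and the dashed line the median of all tested genes (0.10). Leaving out BBR sample 3 moved Cry2 from 0.74 to 1.12 and Cry1 from 0.053 to -0.30.

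Per1 encodes a period protein that also responds quickly to hormones such as glucocorticoids. It was at 7.11, 13.05 and 6.44 FPKM in BBR samples and at 5.69, 5.41 and 7.01 FPKM in SASP samples. BBR sample 2 stood well above the rest, and BBR sample 3 fell below SASP sample 3. The log2 fold change was 0.43 (95% interval -0.16 to 1.03, limma adjusted p = 0.270), and 0.15 without BBR sample 2.

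Per2 encodes the period protein most central to the timing of the loop. It was at 3.73, 4.48 and 3.36 FPKM in BBR samples and at 3.55, 3.43 and 5.33 FPKM in SASP samples. SASP sample 3 was the highest and BBR sample 3 the lowest. The log2 fold change was -0.058 (95% interval -0.49 to 0.37, limma adjusted p = 0.844), and 0.11 without SASP sample 3.

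Per3 encodes a period protein that the loop can run without. It was at 3.98, 2.81 and 1.68 FPKM in BBR samples and at 1.31, 1.61 and 2.64 FPKM in SASP samples. BBR samples 1 and 2 lay above all SASP samples, while BBR sample 3 lay below SASP sample 3. The log2 fold change was 0.40 (95% interval -0.24 to 1.05, limma adjusted p = 0.334). It was 0.19 without BBR sample 1, 0.27 without SASP sample 1 and 0.64 without BBR sample 3, and did not pass in any of them.

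The levels of Arntl, Per1 and Per3 were also set against Per2 within each sample. Arntl to Per2 was at 9.25, 9.19 and 8.87 in BBR samples and at 7.95, 6.36 and 4.53 in SASP samples. Per1 to Per2 was at 1.91, 2.91 and 1.92 in BBR samples and at 1.60, 1.58 and 1.32 in SASP samples. Both ratios were thus higher in every BBR sample, and they share Per2 as the divisor. Per3 to Per2 also did not overlap, by a margin of 0.50 in BBR sample 3 against 0.495 in SASP sample 3. These ratios were not tested, and an exact permutation test of 3 against 3 samples cannot give a two-sided p below 0.10. No share over other pairs of genes was computed, so ratios without overlap have no background here. Among single tested genes, 37.9% did not overlap, Arntl among them.

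**Figure D3:**
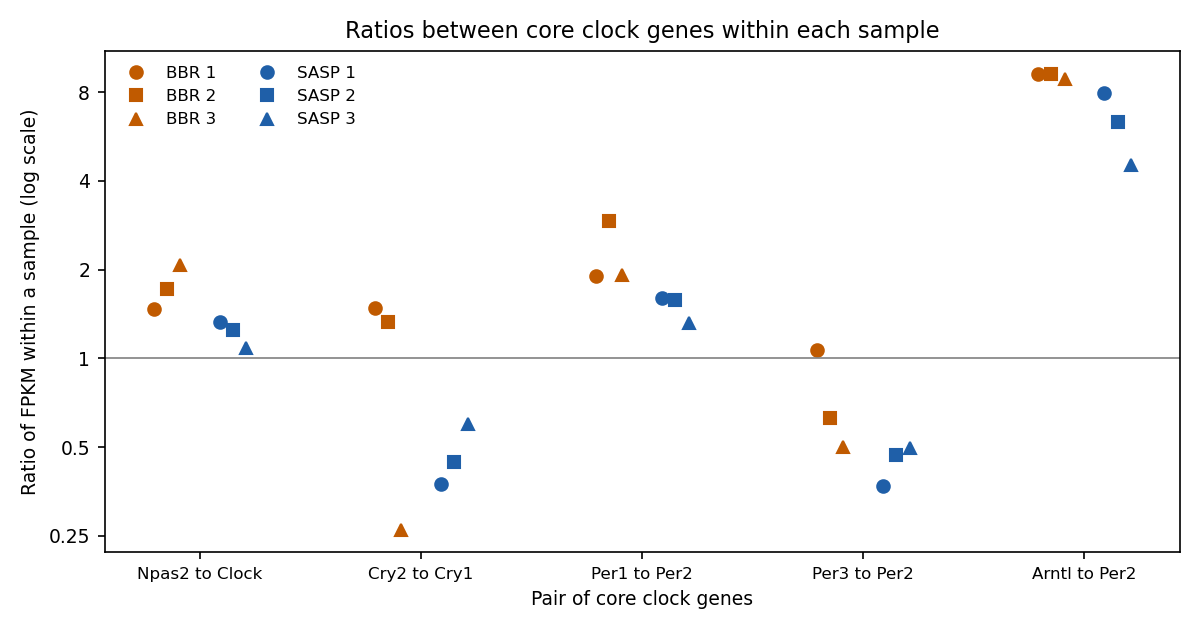
Ratios of FPKM between pairs of core clock genes within each sample on a log axis (orange BBR, blue SASP), with a line at a ratio of 1. Npas2 to Clock, Per1 to Per2, Per3 to Per2 and Arntl to Per2 did not overlap between groups, and Cry2 to Cry1 did. Ratios to Per2 share that divisor, and no share over other pairs of genes was computed. Rora to Arntl, which also overlapped, is not shown.

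BBR sample 3 kept the direction of its group in some members and not in others. Of the 9 members, 7 were higher in BBR samples 1 and 2 than in any SASP sample, and of the 8 tested members 6, where 44% of all tested genes were. This count leaves out BBR sample 3 after its values were seen. It includes narrow margins for Clock (12.31 against 12.3 FPKM), Per1 (7.11 against 7.01 FPKM) and Rora (0.75 against 0.73 FPKM). In BBR sample 3, 4 members lay above the SASP range (Arntl, Npas2, Rora and Cry1), 3 within it (Cry2, Per1 and Per3) and 2 below it (Clock and Per2). The share of all tested genes at each position was not computed, so these counts are a description only. This sample also had the highest smooth muscle markers, whose part in these values was not tested beyond the covariate given above.

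The samples also differed in some direct targets of the loop, here chosen after their values were seen. Nr1d1, which encodes REV-ERB alpha, was at 45.75, 26.07 and 5.86 FPKM in BBR samples and at 13.02, 25.5 and 33.82 FPKM in SASP samples. Dbp, an output activator, was at 4.72, 2.25 and 0.62 FPKM in BBR samples and at 0.65, 2.18 and 5.8 FPKM in SASP samples. BBR sample 3 and SASP sample 1 were thus the lowest pair in both genes. They were also the lowest pair in Nr1d2, which encodes REV-ERB beta, and in Tef, a relative of Dbp. In Cry1, the same samples were the highest pair. Among all tested genes, 11.8% had these samples as the lowest pair, Clock among them, and 1.61% as the highest pair. Not every listed clock gene followed this order. Ciart was at 1.3 FPKM in BBR sample 3, against 0.98 and 0.55 FPKM in BBR samples 1 and 2. Hlf, under 1 FPKM throughout, was at 0.56 FPKM in BBR sample 3 and at 0.36 FPKM in BBR sample 1. Bhlhe40 differed little among BBR samples (45.04 to 45.86 FPKM), and Per3 was lowest in SASP samples 1 and 2. Nfil3, the repressor at D-boxes, was highest in BBR sample 3 at 16.25 FPKM, and lowest in BBR samples 1 and 2 at 4.64 and 4.96 FPKM. Summed smooth muscle markers were highest in BBR sample 3 and lowest in SASP sample 1, and their part in this order was not tested.

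**Figure D4:**
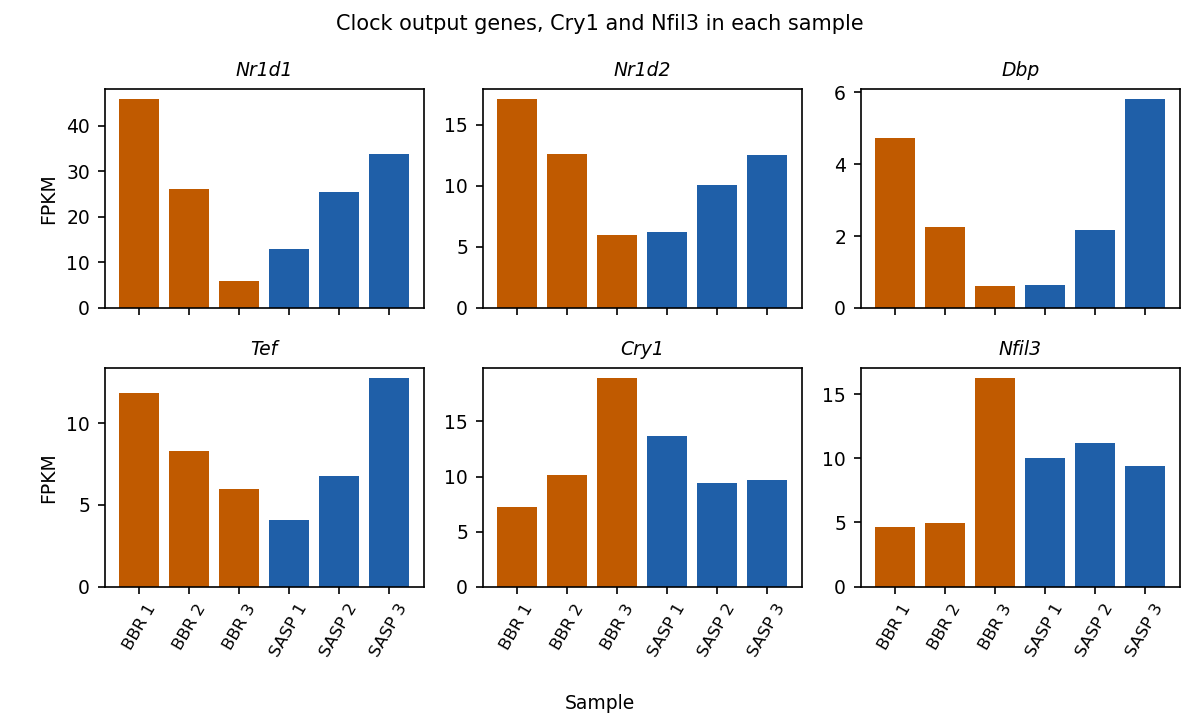
FPKM of Nr1d1, Nr1d2, Dbp, Tef, Cry1 and Nfil3 in each sample (orange BBR, blue SASP, bars from 0). Nr1d1, Nr1d2, Dbp and Tef were lowest in BBR sample 3 and SASP sample 1, where Cry1 was highest.

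These targets were widely spread within groups. Dbp ranged 7.61-fold within BBR and 8.92-fold within SASP, and Nr1d1 7.81-fold and 2.60-fold. Among the members, the range within BBR was 2.70-fold for Cry2, 2.62-fold for Cry1 and 2.37-fold for Per3, but 1.07-fold for Npas2. With the mean log2 level of Nr1d1, Nr1d2, Dbp and Tef as a covariate, an alternative added after seeing the data, no member changed its side of the threshold. Npas2 was then at 0.55 (limma adjusted p = 0.0434), Arntl at 0.49 (limma adjusted p = 0.105) and Cry2 at 0.72 (limma adjusted p = 0.123).

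Of 11 genes listed as second loop and output regulators, 8 were tested and 0 passed the threshold in limma, with 1, Bhlhe40, at an unadjusted p under 0.05. Their median log2 fold change was 0.030, with 4 higher and 4 lower. Of all tested genes, 8.86% passed the threshold and 31.8% were at an unadjusted p of at most 0.05, so 0 of 8 and 1 of 8 set this list apart in neither count. Bhlhe40 encodes a repressor that competes at E-boxes. It was at 45.46, 45.04 and 45.86 FPKM in BBR samples and at 22.14, 31.64 and 35.96 FPKM in SASP samples, a log2 fold change of 0.61 (limma adjusted p = 0.0686). The log2 fold changes of Nr1d1 and Dbp were -0.19 and -0.082, with 95% intervals of -1.83 to 1.45 and -1.52 to 1.36.

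Of 32 genes for enzymes and cofactors that act on clock proteins, 31 were tested, and 1 passed the threshold as higher and 2 as lower. Their median log2 fold change was 0.079, and 9 lay higher without overlap and 3 lower. These shares were near those of all tested genes, of which 8.86% passed and 37.9% did not overlap. Nampt, which encodes an enzyme of NAD synthesis that is itself a clock target, was at 19.6, 20.99 and 20.73 FPKM in BBR samples and at 62.03, 49.06 and 74.57 FPKM in SASP samples. It fell by 1.53 on the log2 scale (SE 0.16, limma adjusted p = 0.00558) and kept its call whichever sample was left out. The call was lost with the smooth muscle markers as a covariate (-1.46, limma adjusted p = 0.122), a fit in which 19 of 12072 genes passed. Nampt is also expressed in leukocytes, of whose markers 4 of 8 were lower in every BBR sample and 4 overlapped, and their part was not tested.

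Timeless, whose protein works at the replication fork and binds cryptochromes, was at 0.95, 1.4 and 0.65 FPKM in BBR samples and at 2.35, 2.72 and 2.32 FPKM in SASP samples. It met the filter of at least 1 FPKM in at least 3 samples through its SASP values, and BBR samples 1 and 3 were under 1 FPKM. Its call is therefore given as a description only. Timeless fell by 0.81 on the log2 scale (limma adjusted p = 0.0385), a call lost without BBR sample 1 or any SASP sample, at limma adjusted p-values of 0.0965 to 0.138. Prkag2 encodes a subunit of AMPK, a kinase that marks cryptochromes for decay. It was at 12.49, 14.65 and 12.56 FPKM in BBR samples and at 6.41, 9.45 and 8.48 FPKM in SASP samples. It rose by 0.65 on the log2 scale (limma adjusted p = 0.0489), and the call was lost on leaving out any sample but BBR sample 3, at limma adjusted p-values of 0.0695 to 0.159. The Prkag2 call was also lost with no filter, with pseudocounts of 0.1 and 0.01 and without the variance trend, at limma adjusted p-values of 0.0517 to 0.0768. The Timeless call was also lost with no filter and with a pseudocount of 0.01 (limma adjusted p = 0.0606 and 0.0503). With the smooth muscle markers as a covariate, where 19 of 12072 genes passed, Timeless and Prkag2 did not pass either (limma adjusted p = 0.281 and 0.393). They did not pass with the covariate of the clock targets (limma adjusted p = 0.0505 and 0.0578).

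The genes whose pattern over the 6 samples was most like that of Arntl were Klk1, Kctd7 and Zfp950. Likeness was the root mean square difference between log2 values centred on each gene's mean, at 0.0543, 0.0635 and 0.0645. Klk1, which encodes tissue kallikrein, was at 889.8 to 1088 FPKM in BBR and 649 to 797 FPKM in SASP samples. Among the members, Npas2 was the nearest to Arntl at 0.203 and Cry1 the farthest at 0.519, ranks 1394 and 10238 of all tested genes. The members thus did not form a tight set around Arntl.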

How the data were processed

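The deposited table holds FPKM per gene and sample, which the authors calculated with RSEM 1.2.12 after alignment with Bowtie2 2.2.5 and rounded to 2 decimals. The submitters' processing notes name the build mm9, and the annotation is not given in the sources used here. The labels name an Illumina kit and the methods another platform for the berberine series, so the preparation is not settled. Groups came from the treatment labels. Replicate numbers follow accession order. Whether each sample is a separate animal is not stated in the labels, so p-values measure the spread between these samples.

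FPKM are not counts, so log2(FPKM + 1) was fitted in limma 3.58.1 (R 4.3.3) with a mean-variance trend, on genes of at least 1 FPKM in at least 3 samples. P-values were two-sided and adjusted by the Benjamini-Hochberg method over all 12072 genes, with a threshold of 0.05. RSEM divides shared reads among related genes. The fit was tested on simulated data. Depth was approximated from genes above 0 in 1 sample only (31 to 56 genes per sample), with short transcripts, taking each as 1 read, and reads per gene from the longest GENCODE M21 transcript, so both are rough. At most 0.389% of tested genes had identical values in a pair of samples.

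The members and lists were chosen with earlier results of these data known. All members were named, with up to 3 members of each other clock list past the threshold, ordered by p, and the 3 genes nearest to Arntl. Other named genes were chosen after their values were seen. RefSeq promoter windows are on GRCm38.p6 and were not compared with read positions. Alternatives changed the filter, pseudocount, scaling, variance trend, sample weights, covariates, threshold or samples.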

Additional observations from a re-analysis of the deposited data

How the results depend on the processing

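The count of core clock genes past the threshold was 1 of 8, where 1069 of all 12072 tested genes passed. It was 0 with no filter (608 of 18260 genes passed), with median-ratio scaling (1683 of 12072) and with the smooth muscle covariate (19 of 12072). At an unadjusted p of at most 0.05 in limma, these fits held 2, 2 and 3 members. In the main fit 2 members were at that unadjusted p, as were 3837 of 12072 genes. Leaving out single samples gave 0 to 3 members, with 3 without BBR sample 3, where 4018 of 11878 genes passed. Array quality weights gave 5 members, where 7126 of 12072 genes passed. The 5 were Arntl, Clock, Npas2, Cry2 and Per3. The weights were 5.32, 0.589 and 0.129 for BBR samples 1, 2 and 3. They were 0.686, 0.746 and 4.85 for SASP samples 1, 2 and 3. The weighted fit thus rested mostly on BBR sample 1 and SASP sample 3. The median log2 fold change stayed positive in all fits, at 0.26 to 0.56 with single samples left out. Clock turned to -0.0038 under quantile normalization and to -0.068 under median-ratio scaling, and ranged from -0.028 to 0.15 with single samples left out. Cry1 turned to -0.0093 and -0.068 with the same scalings, to -0.35 with array weights and to -0.16 with the smooth muscle covariate, and ranged from -0.30 to 0.34 with samples left out, as Per2 did from -0.15 to 0.11. The cause was not tested. Median-ratio scaling moved the median of all tested genes by -0.12. The 1069 genes past the threshold (43.1% higher) became 608 with no filter, 1728 with quantile normalization, 1683 with median-ratio scaling (29.6% higher), 7126 with array weights (65.1% higher), 19 with the smooth muscle covariate (10.5% higher), 3837 at an unadjusted p of at most 0.05 and 51 to 4018 with single samples left out. The log2 difference of Rora, 0.23, was 0.50 and 0.57 with pseudocounts of 0.1 and 0.01, where a low level counts for more. No paired analysis was possible because replicate numbers follow accession order and pair no samples. Low read numbers limit Rora and Per3 most.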
